A study of Homo sapiens with 12 samples.

Results

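Phospholipid flippases, scramblases and lipid transfer proteins form a set of 50 genes whose products move phospholipids across a membrane or from one membrane to another. The genes were taken from a written list by gene name and looked up in the count tables of both cell lines, which were joined by Ensembl identifier. The rule itself used no measured value, but the list was chosen with earlier results of these data known. Of the 50 genes, 49 were listed in both tables and ATP10A was listed in the U138MG table alone. In all, 30984 genes were listed for KYSE30 and 78691 for U138MG. By role, the list held 11 P4-ATPases, 2 CDC50 subunits, 10 scramblases or scramblase relatives, 11 genes of the OSBP family, 4 phosphatidylinositol transfer proteins, 2 extended synaptotagmins, 4 VPS13 proteins, and 6 genes of the GRAM, START and mitochondrial transfer proteins.

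The RNA-seq was made to examine how cells respond in transcription to PTDSS1i, the small molecule DS55980254, which inhibits phosphatidylserine synthase 1, an enzyme that makes phosphatidylserine (PS) by base exchange. The established human cell lines KYSE30, from an esophageal squamous cell carcinoma, and U138MG, given as a glioblastoma line, were used, both with a wild-type genotype label. Cultures received 100 nM PTDSS1i or the DMSO vehicle for 48 h, with 3 biological replicates in each of the 4 groups and 12 libraries of poly-A RNA in all. Each line carries its own batch label, so that a difference between the lines and a difference between the batches cannot be told apart. The labels give 1 medium, that of KYSE30, for every culture, whereas the study's methods name another medium for U138MG.

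In animal cells PS is kept on the cytosolic side of the plasma membrane by flippases, the P4-type ATPases, most of which need a CDC50 subunit (TMEM30A or TMEM30B) to leave the ER. Scramblases let phospholipids cross in both directions without ATP, either after a calcium or caspase signal or, for TMEM41B and VMP1 in the ER, constitutively. Transfer proteins carry lipids through the cytosol at membrane contact sites, where several OSBP-family proteins exchange a sterol or PS for phosphatidylinositol 4-phosphate (PI4P), and VPS13 proteins are long bridges along which lipids may flow in bulk.

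The libraries held 18800932 to 25233442 counts in KYSE30 and 19141002 to 26514658 in U138MG, so that 3 counts corresponded to at most 0.160 CPM, the count divided by the library size and scaled to a fixed total. No replicate pair came within sampling noise, since the chi-square per degree of freedom between replicates lay between 2.29 and 7.44, highest between DMSO replicates 1 and 2 of KYSE30. The U138MG libraries carried squamous epithelial markers at high levels and few of the glial or mesenchymal ones. In the DMSO libraries labelled U138MG the squamous epithelial genes KRT15, KRT5, CDH1, TP63 and EPCAM stood at means of 4861, 1469.5, 463, 276 and 248 CPM of the library total, and the other squamous marker, KRT14, at 0.198 CPM. VIM stood there at 0.206 CPM, GFAP at 2.36 CPM, and S100B and OLIG2 had 0 counts. SPARC, at 713 CPM, GFAP, AQP4, at 2.14 CPM, and NES, at 0.556 CPM, were higher there than in KYSE30. FN1 and VIM had the lower mean there. FN1 stood at 75.8 CPM against 98.3 CPM (SD 24.0) in KYSE30, and VIM stood at 3.99 CPM in KYSE30. In the KYSE30 DMSO libraries CDH1 and EPCAM stood at 514 and 279.6 CPM, TP63 at 98.2 CPM and KRT15 at 41.3 CPM, and KRT5 had at most 3 counts. The summed level of the 6 squamous markers was between 6870 and 7667 CPM in DMSO and between 1716 and 1836 CPM in PTDSS1i in these libraries, whereas it was 896 to 967 CPM in DMSO and 1138 to 1171 CPM in PTDSS1i in KYSE30. The 8 glial or mesenchymal markers summed to 779 to 811 CPM in DMSO and 387 to 404 CPM in PTDSS1i in the libraries labelled U138MG, mostly SPARC. Those listed for KYSE30, which lack S100B and OLIG2, summed there to 82.6 to 130.4 and 60.7 to 67.5 CPM. Whether the shifts of these markers have a part in the changes described here was not tested, and in bulk RNA a smaller share of cells of a type and less RNA per cell cannot be told apart. The name U138MG stands for the label in all that follows.

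Most of the 50 genes were expressed. In KYSE30, 42 passed the filter on low counts, and ATP8A1, ATP8B2, ATP8B4, ATP10B, XKR8, PLSCR3 and OSBPL6 were below it. In U138MG, 48 passed, and ATP8A1 and ATP10A had 0 counts in all 6 libraries, which allows at most 3 counts in a library. Per kilobase of exon, PRELID1, which carries phosphatidic acid between the mitochondrial membranes, was the most abundant in both lines, with a mean of 132 normalized CPM per kilobase (range 122 to 147) in the KYSE30 DMSO libraries and 43.8 (42.5 to 44.9) in those of U138MG. In KYSE30 it was followed by ESYT2 at 35.6, STARD7 at 33.3, VMP1 at 30.6 and TMEM30A at 29.9 normalized CPM per kilobase. The ranges of ESYT2 (35.2 to 36.2) and STARD7 (32.0 to 34.4) did not overlap, whereas those of STARD7, VMP1 (27.3 to 33.2) and TMEM30A (27.8 to 31.1) did, each with its neighbour. In U138MG the next were STARD7 at 29.9 (28.8 to 31.0) and TMEM30A at 29.2 (28.6 to 29.8), whose ranges overlapped, and then ESYT2 at 19.99, OSBP at 19.7 and PITPNB at 19.6, whose ranges overlapped as well.

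Some members were expressed at very unequal levels in the vehicle cultures of the lines. PLSCR3 stood at 0.44, 0.303 and 0.298 normalized CPM in the KYSE30 DMSO libraries and at 28.7, 27.3 and 28.0 in those of U138MG. ATP8B2, a flippase of the plasma membrane, had 0.0489, 0 and 0.0425 normalized CPM in KYSE30 and 35.8, 36.1 and 36.1 in U138MG. The plot of levels shows the same for PLSCR4, XKR8, ATP10B and OSBPL6, which were at very low levels in KYSE30 and higher in U138MG. The lines were counted in separate tables and normalized separately, and no test was made of these levels. The counts of PLSCR3 can be shared with the read-through gene TMEM256-PLSCR3, whose exons overlap it on the same strand.

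**Figure D1:**
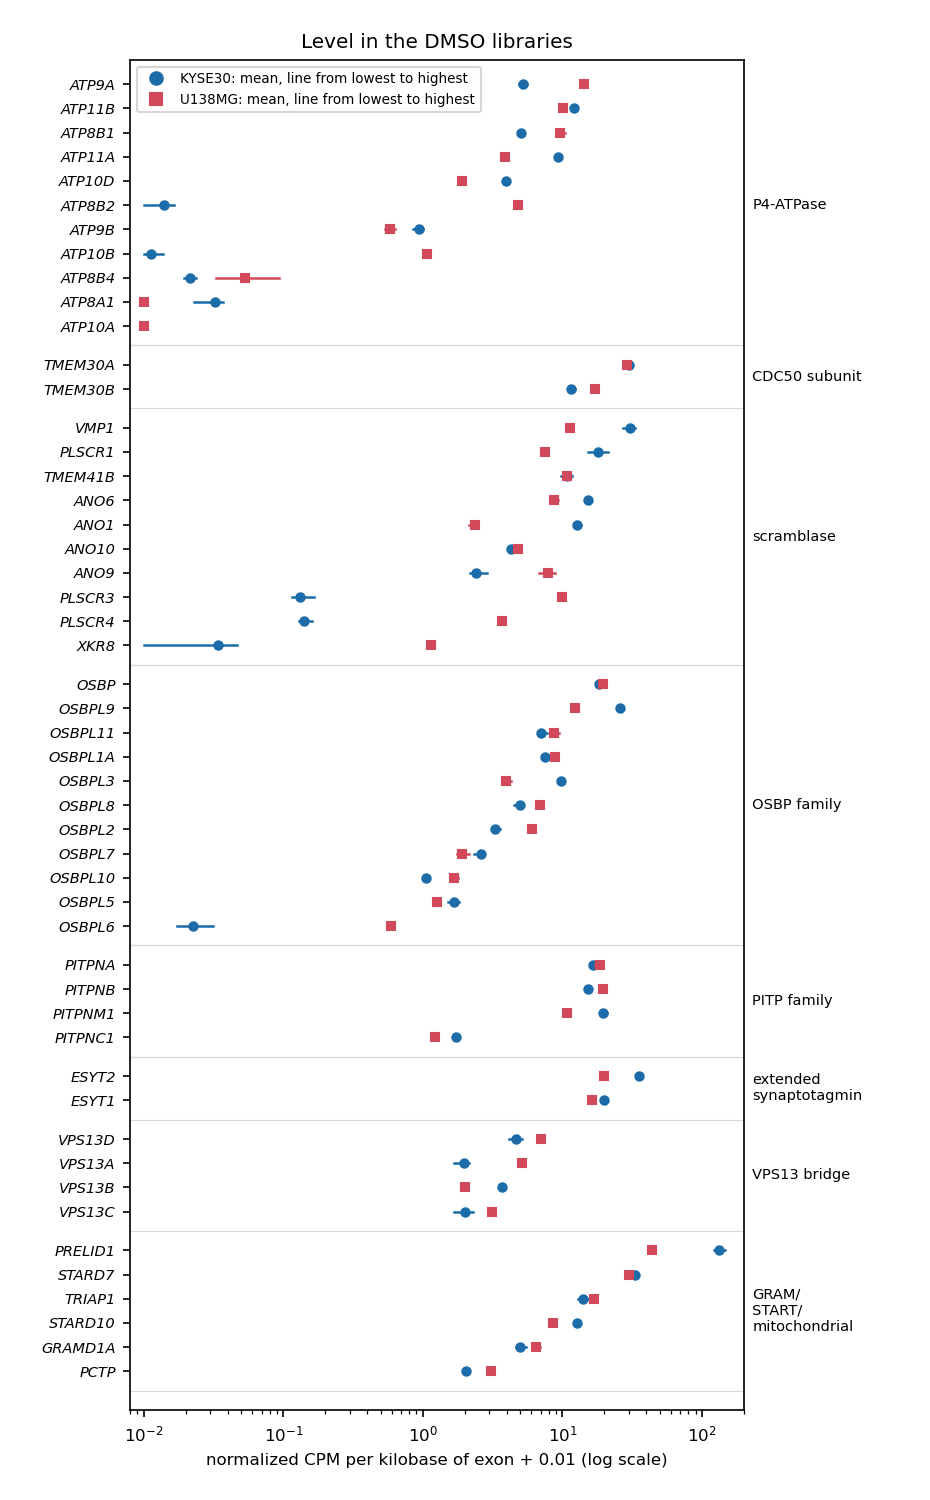
Mean level of each member in the 3 DMSO libraries of KYSE30 (blue circles) and of U138MG (red squares), in normalized CPM per kilobase of exon plus 0.01 on a log axis, grouped by role. The horizontal line runs from the lowest to the highest library, and PRELID1 lies farthest right in both lines at means of 132 and 43.8.

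PTDSS1i shifted the greater number of the genes tested, and more of these members rose than fell. In KYSE30, 24 of the 42 tested members were higher at an adjusted p under 0.05, against 30.1% of all 16389 genes tested, and 9 were lower, against 32.0%. In U138MG, 24 of the 48 tested were higher, against 33.9% of 17666 genes, and 12 were lower, against 33.6%. The median log2 fold change over the tested members was 0.20 in KYSE30 and 0.16 in U138MG, beside -0.03 over all genes in each line. Most of these changes were smaller than 2-fold. STARD10 alone rose at least 2-fold in KYSE30, where 6.4% of all genes did, and no member fell as far, the lowest log2 fold change being -0.45, where 7.04% of all genes fell at least 2-fold. VMP1 alone rose at least 2-fold in U138MG, against 8.19% of all genes, and ANO1, PLSCR4, OSBPL5 and OSBPL7 fell at least 2-fold, 4 of 48 against 11.6%.

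The treated and vehicle libraries did not overlap for 34 of the 42 members in KYSE30, where this held for 66.3% of all genes tested, and for 41 of the 48 in U138MG, against 71.4%. Of the 42 members tested in both lines, 16 rose in both and 5 fell in both. The shares of all genes that rose in both lines or fell in both were not counted, so these counts have no comparison. In all, 6 members were called in both lines with opposite signs, against 14.9% of the 13990 genes tested in both. Fold changes here come from edgeR's quasi-likelihood test on counts scaled by TMM, with Benjamini-Hochberg adjustment over all genes of a line. Their errors are approximate standard errors (SE). Each was worked back from the test, as the size of the log2 fold change over the square root of its F statistic. The direction counts depended in part on the scaling. Scaling by library size alone moved the median of all genes by -0.10 in KYSE30 and -0.15 in U138MG and gave 18 members higher and 10 lower in KYSE30 and 20 higher and 16 lower in U138MG, so that the members higher among those called went from 66.7% to 55.6% in U138MG. Over all genes tested, the share higher among those called went from 48.5% to 37.8% in KYSE30 and from 50.2% to 37.1% in U138MG with the same change of scaling. Upper-quartile scaling also gave 20 and 16 in U138MG.

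**Figure D2:**
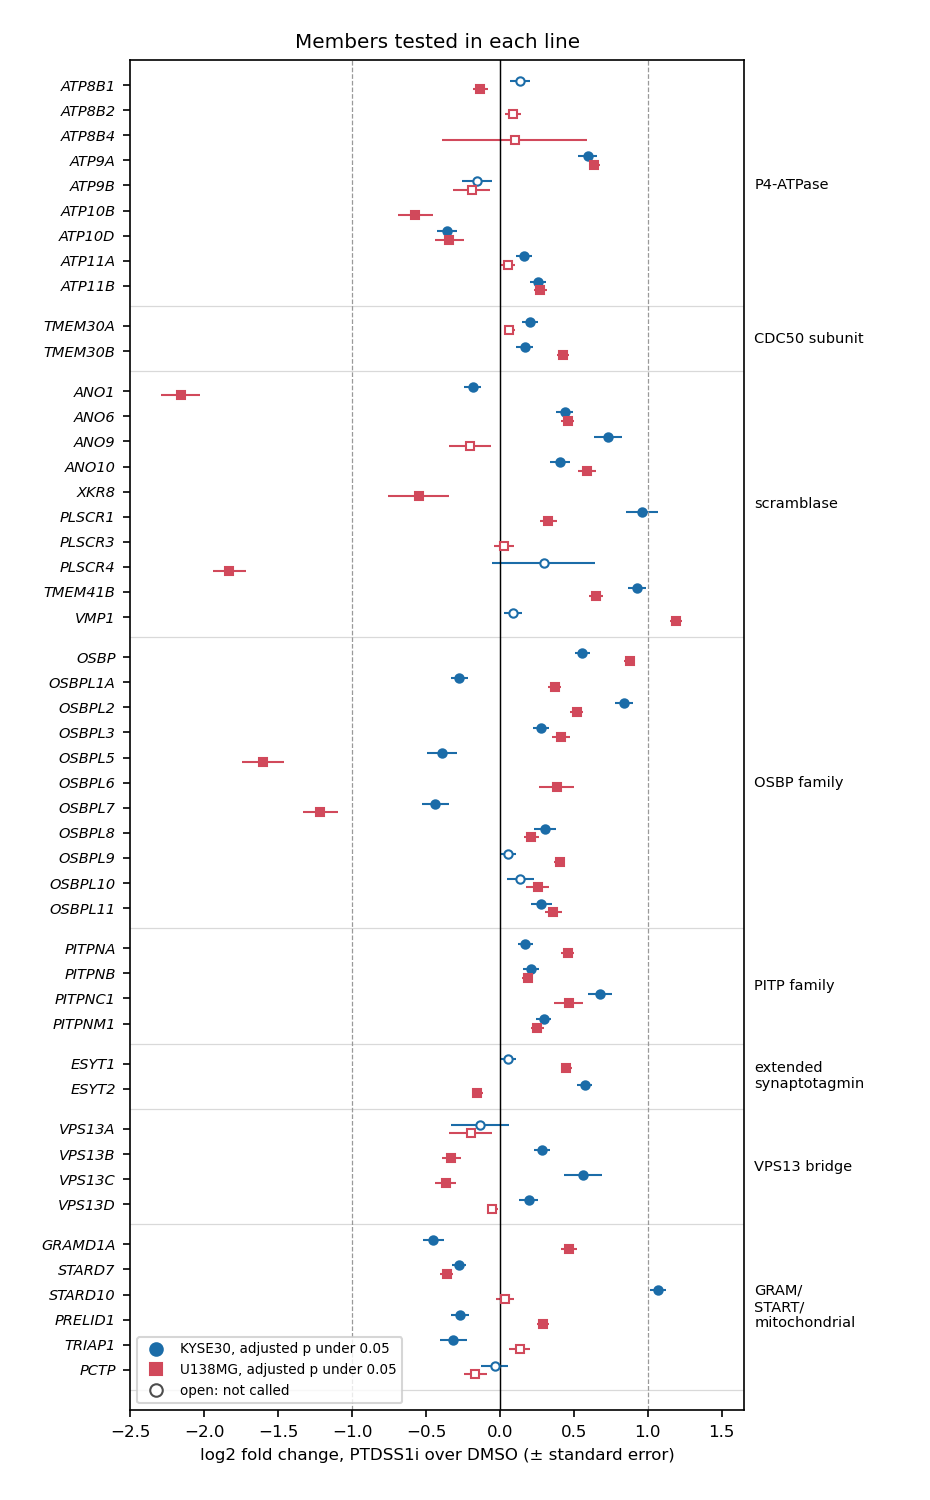
Log2 fold change of PTDSS1i over DMSO with its standard error for each tested member, grouped by role, in KYSE30 (blue circles) and U138MG (red squares), where filled symbols have an adjusted p under 0.05 and dashed lines mark a 2-fold change. With TMM scaling most filled symbols lie right of 0, and ANO1, PLSCR4, OSBPL5 and OSBPL7 lie beyond the left dashed line in U138MG.

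The P4-ATPases moved in both directions. In KYSE30, 3 of the 6 tested rose and 1 fell, with a median log2 fold change of 0.15, and in U138MG 2 of the 9 tested rose and 3 fell, with a median of 0.05. Without scaling beyond library size the KYSE30 counts were 2 and 2, and the median in U138MG was -0.09. ATP9A, an endosomal member that works without a CDC50 subunit, had the highest mean level per kilobase over the 12 libraries, at 12.3 normalized CPM per kilobase, barely above ATP11B at 12.2. In the KYSE30 DMSO libraries it stood at 5.18 normalized CPM per kilobase, below ATP11B at 12.1 and ATP11A at 9.31. In KYSE30 it had 40.5, 46.6 and 42.1 normalized CPM in DMSO and 67.7, 65.0 and 62.0 in PTDSS1i. In U138MG it had 118, 122 and 114 in DMSO and 184, 186 and 182 in PTDSS1i. All treated libraries lay above all vehicle libraries in both lines, and the rises were of near equal size, at log2 fold changes of 0.59 (SE 0.06, adjusted p = 4.21e-08) in KYSE30 and 0.64 (SE 0.04, adjusted p = 4.08e-15) in U138MG. The difference between these was 0.01 (SE 0.07) in a fit of both lines.

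ATP11B, which flips PS and phosphatidylethanolamine (PE) in endosomes, also rose in both lines, by log2 fold changes of 0.26 (SE 0.05) in KYSE30 and 0.27 (SE 0.04) in U138MG. ATP10D, which flips glucosylceramide, fell in both, with -0.36 (SE 0.07) and -0.34 (SE 0.10). ATP10B, a glucosylceramide flippase of late endosomes and lysosomes, had 12.3, 11.7 and 11.8 normalized CPM in the U138MG DMSO libraries and 9.70, 7.69 and 6.71 in PTDSS1i, and fell with a log2 fold change of -0.57 (SE 0.12). In KYSE30 the same gene had at most 1 count in a library. The calls of ATP11A, a plasma membrane PS and PE flippase, and ATP8B1 were lost when certain single libraries were left out. ATP11A rose in KYSE30 with a log2 fold change of 0.16 (SE 0.05, adjusted p = 0.0116), and this call was lost without DMSO replicate 3 (adjusted p = 0.0602) and without PTDSS1i replicate 1 (adjusted p = 0.0897). Library-size scaling also removed the ATP11A call, at 0.06 (adjusted p = 0.308). ATP8B1 was lower in U138MG at -0.13 (SE 0.05, adjusted p = 0.0217), with adjusted p = 0.228 without DMSO replicate 2, 0.0895 without PTDSS1i replicate 2 and 0.0836 without PTDSS1i replicate 3. Of the rest, ATP9B, of the trans-Golgi network, was called in neither line, at -0.15 (SE 0.10) in KYSE30 and -0.19 (SE 0.12) in U138MG, and was called lower in both under library-size scaling, at -0.26 and -0.34. In U138MG, ATP8B2 was at 0.09 (SE 0.06) and ATP8B4 at 0.10 (SE 0.49), neither called. In KYSE30 ATP8B1 was at 0.14 (SE 0.07) and not called, and was called higher at 0.20 without PTDSS1i replicate 2.

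The CDC50 subunits, which carry P4-ATPases out of the ER, were higher in KYSE30 by little. TMEM30A, the broadly expressed subunit, had 142, 159 and 157 normalized CPM in DMSO and 173, 174 and 180.4 in PTDSS1i in KYSE30. In U138MG its values were 149.9, 146 and 153 in DMSO and 155, 153 and 161 in PTDSS1i. The groups did not overlap in either line, yet the test called the gene in KYSE30 at 0.20 (SE 0.05, adjusted p = 0.00243) and not in U138MG at 0.06 (SE 0.04, adjusted p = 0.119). TMEM30B, its paralog, rose in both lines, with 0.17 (SE 0.06) in KYSE30 and 0.43 (SE 0.04) in U138MG. Scaling by library size alone removed both KYSE30 calls and turned TMEM30A in U138MG to -0.08, and the TMEM30B call in KYSE30 was also lost without PTDSS1i replicate 2 (adjusted p = 0.0600) or PTDSS1i replicate 3 (adjusted p = 0.0615).

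Among the scramblases and their relatives, 5 of 8 tested rose in KYSE30 and 1 fell, with a median of 0.42, and 5 of 10 rose in U138MG and 3 fell, with a median of 0.18. The ER scramblases VMP1 and TMEM41B, both needed to build autophagosomes, moved differently from each other. VMP1 (chr17:59707192-59842255, plus strand, here and below in GRCh38 by GENCODE v29) had 189, 229 and 218 normalized CPM in DMSO and 224, 229 and 222 in PTDSS1i in KYSE30. Its U138MG values were 76.1, 80.3 and 80.2 in DMSO and 189.8, 179.6 and 172 in PTDSS1i. The treated libraries were all more than 2-fold above the vehicle libraries in U138MG, at 1.19 (SE 0.04, adjusted p = 2.44e-20), whereas in KYSE30 the groups overlapped, at 0.09 (SE 0.06, adjusted p = 0.217). Without DMSO replicate 2 the KYSE30 value was 0.14 and passed the test (adjusted p = 0.0413). Exons of VMP1 overlap the microRNA gene MIR21 on the same strand, and PTRH2 on the other strand.

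TMEM41B rose in both lines and more so in KYSE30. Its KYSE30 values were 47.6, 42.8 and 51.6 normalized CPM in DMSO and 91.0, 91.5 and 88.0 in PTDSS1i, and those of U138MG were 45.3, 48.0 and 49.2 in DMSO and 74.6, 76.1 and 72.7 in PTDSS1i. The groups did not overlap, at log2 fold changes of 0.93 (SE 0.06) in KYSE30 and 0.65 (SE 0.05) in U138MG. ANO6, the calcium-activated scramblase that exposes PS on platelets, rose to a like extent in the lines, with 0.44 (SE 0.06) in KYSE30 and 0.46 (SE 0.04) in U138MG, and ANO10, an ER-resident relative, with 0.40 (SE 0.07) and 0.59 (SE 0.06).

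ANO1 (chr11:70078302-70189528, plus strand), a calcium-activated chloride channel of the same family, fell in both lines and far more in U138MG. In KYSE30 it had 73.7, 81.1 and 74.9 normalized CPM in DMSO and 68.6, 65.7 and 67.7 in PTDSS1i. The U138MG libraries held 14.9, 14.7 and 12.7 in DMSO and 2.94, 2.72 and 3.75 in PTDSS1i. The log2 fold changes were -0.18 (SE 0.06, adjusted p = 0.00665) in KYSE30 and -2.16 (SE 0.13, adjusted p = 1.6e-14) in U138MG, a 4.46-fold fall in the latter, and the groups overlapped in neither line. An antisense gene, ANO1-AS1, overlaps its exons. ANO9, another relative, was higher in KYSE30 at 0.73 (SE 0.10, adjusted p = 1.28e-06) and had overlapping groups in U138MG, at -0.20 (SE 0.14), a value called lower with no filter on low counts (-0.17, adjusted p = 0.0293).

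The phospholipid scramblase (PLSCR) genes changed unequally. PLSCR1, which is induced by interferon, nearly doubled in KYSE30, from 66.1, 91.5 and 76.1 normalized CPM in DMSO to 143, 157 and 155 in PTDSS1i, at 0.96 (SE 0.11, adjusted p = 0.000105). In U138MG it rose from 32.5, 32.7 and 32.1 to 41.4, 42.0 and 38.7, at 0.33 (SE 0.06). PLSCR4 (chr3:146192339-146251179, minus strand) fell in U138MG from 16.2, 15.9 and 14.6 normalized CPM to 4.43, 4.47 and 4.23, at -1.83 (SE 0.11, adjusted p = 1.24e-14). In KYSE30 PLSCR4 was scarce, with 0.635, 0.504 and 0.51 normalized CPM in DMSO and 0.42, 0.918 and 0.702 in PTDSS1i, and the overlapping groups gave 0.30 (SE 0.35, adjusted p = 0.479). PLSCR3 was not called in U138MG, at 0.03 (SE 0.07). XKR8, the scramblase that caspases switch on in apoptosis, was low in U138MG, at 3.30, 2.95 and 3.11 normalized CPM in DMSO and 1.84, 2.26 and 2.28 in PTDSS1i. The groups did not overlap and the log2 fold change was -0.55 (SE 0.21, adjusted p = 0.0210), but the call was lost without DMSO replicate 1 (adjusted p = 0.0611) and without PTDSS1i replicate 1 (adjusted p = 0.0889).

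In the OSBP family 5 of 10 tested members rose in KYSE30 and 3 fell, with a median of 0.21, and 9 of 11 rose in U138MG and 2 fell, with a median of 0.37. With library-size scaling, and also with upper-quartile scaling, the U138MG counts were 6 and 2. OSBP, which brings cholesterol from the ER to the Golgi in exchange for PI4P, had the highest mean level per kilobase over the 12 libraries, although in the KYSE30 DMSO libraries OSBPL9 stood above it, at 25.7 against 18.2 normalized CPM per kilobase. OSBP rose in KYSE30 from 100.4, 96.3 and 103 normalized CPM in DMSO to 150.3, 142 and 149 in PTDSS1i. In U138MG it rose from 111, 106 and 107 to 201, 192 and 202. Treated and vehicle libraries lay far apart in both lines, at 0.56 (SE 0.05, adjusted p = 4.61e-09) in KYSE30 and 0.88 (SE 0.04, adjusted p = 3.18e-18) in U138MG, and the rise was larger in U138MG by 0.28 (SE 0.06, adjusted p = 0.000447 for the interaction). OSBPL2, which delivers cholesterol to the plasma membrane, rose in both as well, with 0.84 (SE 0.06) in KYSE30 and 0.52 (SE 0.04) in U138MG. OSBPL3, which is found at ER contacts with the plasma membrane, rose with 0.28 (SE 0.06) and 0.41 (SE 0.06), and OSBPL11 with 0.28 (SE 0.07) and 0.36 (SE 0.06). OSBPL9, which acts at the Golgi, was not called in KYSE30 at 0.06 (SE 0.05) and rose in U138MG with 0.40 (SE 0.04). OSBPL6, below the filter in KYSE30, was tested in U138MG alone, at 0.38 (SE 0.12). Library-size scaling (adjusted p = 0.0740) and upper-quartile scaling (adjusted p = 0.0723) each removed this call.

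The ORP5 and ORP8 proteins, products of OSBPL5 and OSBPL8, exchange PS for PI4P between the ER and the plasma membrane, and their genes went opposite ways. OSBPL5 (chr11:3087116-3166739, minus strand) fell in KYSE30 from 11.3, 12.3 and 13.5 normalized CPM to 8.76, 9.53 and 10.0. In U138MG it fell from 9.04, 9.83 and 9.23 to 3.51, 2.90 and 2.83. The treated libraries were below all vehicle libraries in both lines, at -0.39 (SE 0.10, adjusted p = 0.00218) in KYSE30 and -1.60 (SE 0.14, adjusted p = 5.6e-11) in U138MG, a 3.04-fold fall in the latter. OSBPL8 was higher in both, at 0.30 (SE 0.07) in KYSE30 and 0.21 (SE 0.05) in U138MG. The U138MG call was lost when only library size was used (adjusted p = 0.246) and under upper-quartile scaling (adjusted p = 0.226). OSBPL10, whose product also carries PS, was not called in KYSE30 at 0.14 (SE 0.09) and was higher in U138MG at 0.25 (SE 0.08). Library-size scaling (adjusted p = 0.216) and upper-quartile scaling (adjusted p = 0.205) each removed the U138MG call.

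OSBPL7 (chr17:47807372-47821834, minus strand) followed OSBPL5 downward. In KYSE30 it went from 17.8, 18.1 and 15.3 normalized CPM in DMSO to 12.1, 12.5 and 13.0 in PTDSS1i. In U138MG it went from 11.4, 14.1 and 12.2 to 5.57, 5.89 and 4.83. Neither line showed overlap, and the log2 fold changes were -0.44 (SE 0.09, adjusted p = 0.000245) and -1.21 (SE 0.12, adjusted p = 5.3e-10). OSBPL1A, which encodes a cholesterol sensor of late endosomes, was called in both lines with opposite signs. It fell in KYSE30 from 59.4, 60.7 and 58.9 normalized CPM to 49.4, 47.2 and 51.4. It rose in U138MG from 73.0, 70.3 and 68.2 to 89.8, 90.6 and 92.6. The log2 fold changes were -0.27 (SE 0.06, adjusted p = 0.000272) and 0.37 (SE 0.04, adjusted p = 1.06e-08), and the groups overlapped in neither line. Unnamed genes overlap its exons on both strands.

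All 4 phosphatidylinositol transfer protein genes rose in both lines, with medians of 0.25 in KYSE30 and 0.35 in U138MG. With library-size scaling 2 of the 4 were still called in KYSE30 and 3 in U138MG. PITPNA, a soluble carrier of phosphatidylinositol and phosphatidylcholine, had the highest mean level per kilobase over the 12 libraries. In the DMSO libraries PITPNM1 was above it in KYSE30, at 19.5 against 16.4 normalized CPM per kilobase, and PITPNB in U138MG, at 19.6 against 18.5. PITPNA had 81.6, 75.0 and 79.1 normalized CPM in DMSO and 90.7, 86.5 and 88.5 in PTDSS1i in KYSE30. In U138MG its values were 92.5, 81.4 and 92.2 in DMSO and 124, 118 and 123 in PTDSS1i. The groups were apart in both lines, at 0.17 (SE 0.05, adjusted p = 0.00795) and 0.46 (SE 0.05, adjusted p = 2.11e-09), and an antisense gene, PITPNA-AS1, overlaps its exons. PITPNC1, which also binds phosphatidic acid, rose most of the 4 in KYSE30, at 0.68 (SE 0.08), and reached 0.46 (SE 0.10) in U138MG. PITPNB, a close relative of PITPNA, was at 0.21 (SE 0.05) in KYSE30 and 0.19 (SE 0.04) in U138MG, and both calls were lost under library-size scaling. The U138MG call was also lost under upper-quartile scaling (adjusted p = 0.344). PITPNM1, which returns phosphatidylinositol to the plasma membrane at ER contacts, was at 0.29 (SE 0.05) and 0.25 (SE 0.04).

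The extended synaptotagmins, tethers that carry glycerolipids between the ER and the plasma membrane, parted between the lines. ESYT2 rose in KYSE30 from 252, 257 and 249.8 normalized CPM in DMSO to 377, 372 and 379 in PTDSS1i. In U138MG it fell from 142, 146 and 137 to 130.0, 126 and 127. The shift was large against the replicate spread in KYSE30 and small in U138MG, where the groups still did not overlap, at 0.57 (SE 0.05, adjusted p = 1.15e-09) and -0.15 (SE 0.04, adjusted p = 0.000642). ESYT1 showed the other order, with 0.05 (SE 0.05) and no call in KYSE30 and a rise of 0.45 (SE 0.04) in U138MG. The interaction was -0.77 (SE 0.06, adjusted p = 1.52e-12) for ESYT2 and 0.36 (SE 0.06, adjusted p = 2.36e-05) for ESYT1.

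The bridge-like VPS13 genes rose in part in KYSE30 and fell in part in U138MG. In KYSE30, 3 of 4 rose, with a median of 0.24, and in U138MG 2 of 4 fell and the other 2 were not called, with a median of -0.26. VPS13C, which spans the ER and late endosomes or lipid droplets, had 32.5, 44.6 and 40.0 normalized CPM in DMSO and 51.0, 64.6 and 57.5 in PTDSS1i in KYSE30. In U138MG it had 61.2, 58.1 and 64.0 in DMSO and 50.9, 50.1 and 41.2 in PTDSS1i. Its replicates were spread widely, yet the groups did not overlap, at 0.56 (SE 0.13, adjusted p = 0.00607) in KYSE30 and -0.37 (SE 0.07, adjusted p = 0.000709) in U138MG.

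VPS13B, which works at the Golgi, had 59.6, 62.7 and 62.3 normalized CPM in DMSO and 76.9, 73.5 and 74.5 in PTDSS1i in KYSE30. Its U138MG values were 31.5, 35.1 and 32.7 in DMSO and 25.3, 28.4 and 25.6 in PTDSS1i. It rose in KYSE30 at 0.28 (SE 0.05, adjusted p = 9.91e-05) and fell in U138MG at -0.33 (SE 0.07, adjusted p = 9.4e-05), with no overlap in either. VPS13D, which serves mitochondria and peroxisomes, was the most abundant of the VPS13 genes per kilobase. Its values were 85.9, 107 and 95.3 normalized CPM in DMSO and 113, 108 and 108 in PTDSS1i in KYSE30. In U138MG they were 145, 146 and 144 in DMSO and 143, 138.2 and 139 in PTDSS1i. The KYSE30 vehicle libraries were spread up to the treated ones without reaching them, and the rise of 0.20 (SE 0.06, adjusted p = 0.0118) was lost without PTDSS1i replicate 1 (adjusted p = 0.0503) and under library-size scaling (adjusted p = 0.318). In U138MG the value was -0.05 (SE 0.04, adjusted p = 0.200), and -0.20, a call, under library-size scaling.

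VPS13A, the gene of chorein, was called in neither line. It had 33.7, 43.4 and 41.0 normalized CPM in DMSO and 28.99, 44.8 and 33.9 in PTDSS1i in KYSE30. In U138MG it had 101, 104 and 108 in DMSO and 107, 92.2 and 74.7 in PTDSS1i. The groups overlapped in both lines, at -0.14 (SE 0.20) in KYSE30 and -0.20 (SE 0.15) in U138MG. Without PTDSS1i replicate 2 the KYSE30 value was -0.32 (adjusted p = 0.0141), and without PTDSS1i replicate 1 the U138MG value was -0.31 (adjusted p = 0.00598).

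The GRAM, START and mitochondrial transfer genes were the one role group in which more members fell than rose in KYSE30, 4 of 6 against 1, with a median of -0.27. In U138MG 2 of 6 rose and 1 fell, with a median of 0.08 that turned to -0.07 under library-size scaling. STARD10 (chr11:72754729-72793681, minus strand), which binds phosphatidylcholine and PE, was the exception in KYSE30. It rose there from 47.4, 47.0 and 46.1 normalized CPM in DMSO to 101, 100.2 and 93.3 in PTDSS1i. U138MG had 33.6, 31.3 and 30.7 in DMSO and 32.8, 32.4 and 32.5 in PTDSS1i. Treated cultures were all at about 2-fold the vehicle level in KYSE30, at 1.07 (SE 0.06, adjusted p = 3.43e-13), and the groups overlapped in U138MG, at 0.03 (SE 0.06, adjusted p = 0.661). The interaction was -1.08 (SE 0.08, adjusted p = 4.87e-13). Exons of ARAP1 and of AP002381.2 overlap STARD10 on the same strand.

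GRAMD1A, which moves cholesterol from the plasma membrane to the ER at sites rich in PS, went opposite ways in the lines. It fell in KYSE30 from 27.6, 32.3 and 28.9 normalized CPM to 21.7, 21.5 and 21.8. It rose in U138MG from 37.5, 40.7 and 36.2 to 52.1, 52.4 and 53.3. The changes were of like size, at -0.45 (SE 0.07, adjusted p = 1.66e-05) and 0.46 (SE 0.05, adjusted p = 1.35e-08), with no overlap, and unnamed antisense genes overlap its exons. PRELID1 did the same on a smaller scale. It had 276, 229 and 239 normalized CPM in DMSO and 204, 211 and 202 in PTDSS1i in KYSE30. Its U138MG libraries stood at 79.7, 84.2 and 82.7 in DMSO and 99.6, 97.4 and 105 in PTDSS1i. The groups did not overlap, at -0.27 (SE 0.06, adjusted p = 0.000663) in KYSE30 and 0.29 (SE 0.04, adjusted p = 5.57e-07) in U138MG, and MXD3 overlaps its exons on the other strand.

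The promoters of all matched members were searched for 4 stress-linked or growth-linked motifs, and those of 3 members whose lines parted are shown. They are PRELID1, STARD10 and VMP1, given from 250 bases before to 50 after the start site, from the RefSeq table of build GRCh38.p14, in which 45 of the 50 members were matched. Capitals mark the E-box CACGTG. The STARD10 promoter (chr11:72793998-72794297, minus strand) holds it from 28 bases after the start, and the PRELID1 promoter (chr5:177303549-177303848, plus strand) from 55 bases before it. The VMP1 promoter (chr17:59707404-59707703, plus strand) holds none of the motifs searched. The same held for ESYT2, VPS13C and GRAMD1A, whose lines also parted and whose promoters are not shown.
STARD10: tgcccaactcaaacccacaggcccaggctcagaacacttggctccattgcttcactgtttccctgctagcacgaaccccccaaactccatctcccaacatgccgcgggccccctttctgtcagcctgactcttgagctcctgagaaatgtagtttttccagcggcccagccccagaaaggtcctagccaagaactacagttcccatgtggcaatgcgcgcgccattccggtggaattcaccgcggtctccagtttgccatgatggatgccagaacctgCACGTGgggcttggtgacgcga
PRELID1: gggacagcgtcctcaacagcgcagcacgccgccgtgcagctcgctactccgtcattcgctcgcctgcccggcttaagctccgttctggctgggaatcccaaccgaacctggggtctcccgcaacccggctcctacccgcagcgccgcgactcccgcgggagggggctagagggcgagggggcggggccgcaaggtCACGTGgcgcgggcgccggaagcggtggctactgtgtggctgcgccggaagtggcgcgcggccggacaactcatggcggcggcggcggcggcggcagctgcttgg
VMP1: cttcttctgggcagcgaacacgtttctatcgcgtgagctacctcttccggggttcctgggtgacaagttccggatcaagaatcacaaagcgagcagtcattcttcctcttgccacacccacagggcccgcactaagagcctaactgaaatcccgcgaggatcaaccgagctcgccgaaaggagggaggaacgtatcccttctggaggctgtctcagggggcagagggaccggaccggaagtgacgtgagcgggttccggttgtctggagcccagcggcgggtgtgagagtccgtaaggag
The motifs were the E-box, the ATF4-C/EBP element TGATGNAAN, the XBP1/ATF6 element TGACGTGG, and the ER stress element by its name, each on both strands, and the E-box can share letters with the ER stress element. The E-box stood in the promoters of 4 of the 45 members, which were PRELID1, STARD10, OSBPL8 and OSBPL1A, and in 7.26% of all 35116 promoters in the table. A member was counted if any of its promoters matched, and some, such as OSBPL8 and OSBPL1A, had several. The share over all is per promoter, so the counts are not of like units. The other motifs stood in no member, and in 3.61%, 0.729% and 0.0769% of all promoters. These are matches of letters in a fixed window and say nothing of a factor bound there.

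TRIAP1, the partner of PRELID1 in the intermembrane space, fell in KYSE30 at -0.31 (SE 0.09, adjusted p = 0.00499), a call lost without DMSO replicate 3 (adjusted p = 0.0512). In U138MG it was not called at 0.13 (SE 0.07), and was called higher at 0.18 without DMSO replicate 3 (adjusted p = 0.0494). STARD7, which brings phosphatidylcholine to mitochondria, fell in both lines, at -0.28 (SE 0.05) in KYSE30 and -0.36 (SE 0.04) in U138MG. PCTP, a soluble phosphatidylcholine carrier, was called in neither line, at -0.04 (SE 0.09) and -0.17 (SE 0.08), and was called lower in U138MG at -0.32 under library-size scaling.

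**Figure D3:**
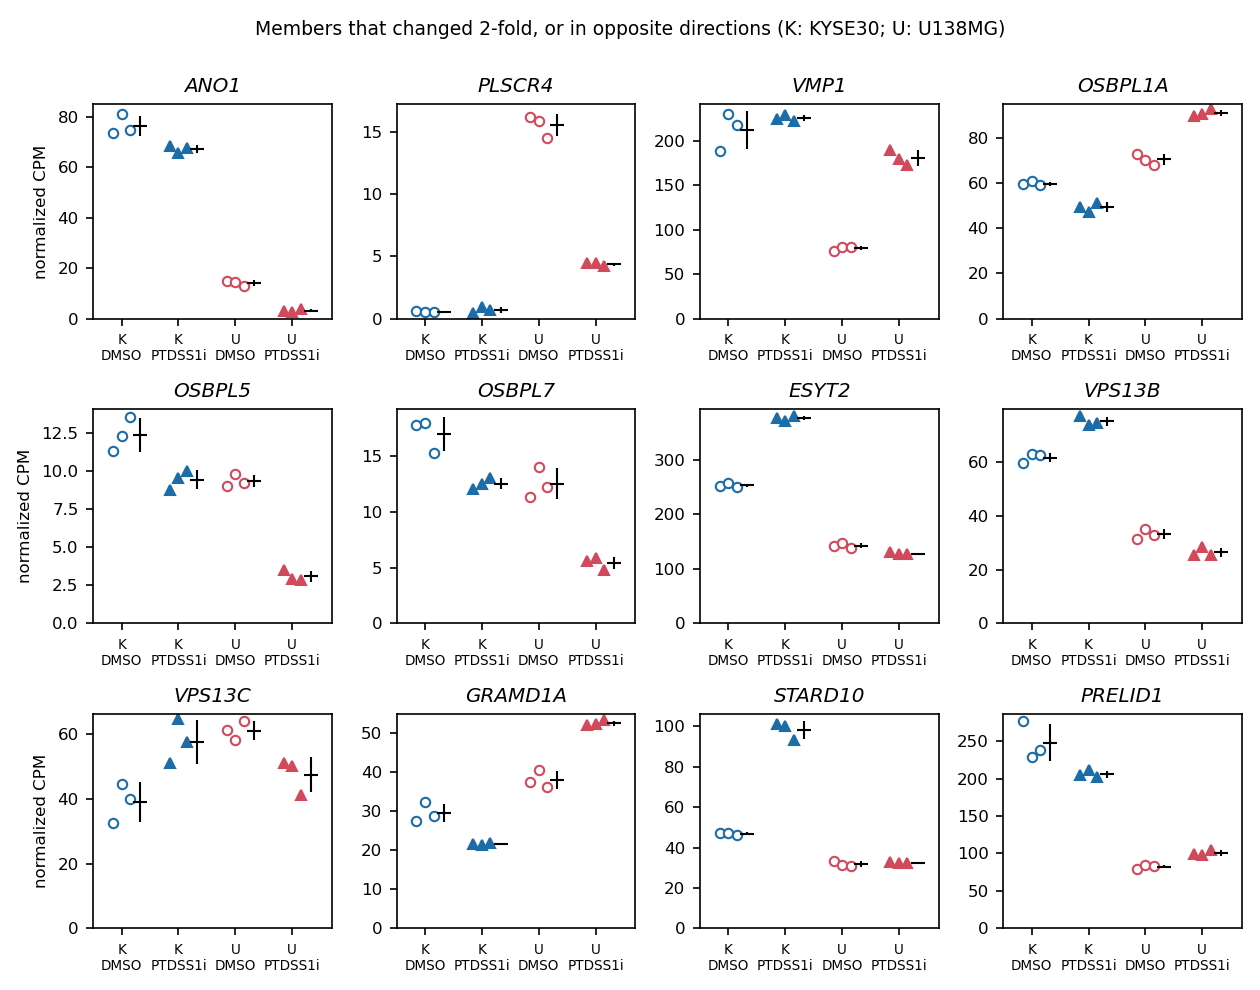
Normalized CPM of each library for the 12 members that changed at least 2-fold in a line or were called with opposite signs in the lines, with open circles for DMSO, filled triangles for PTDSS1i, blue for KYSE30 (K) and red for U138MG (U), and a black cross for the mean ± SD of 3 libraries. The axes start at 0, and the triangles of STARD10 in KYSE30 lie between 93.3 and 101 against 46.1 to 47.4 for the circles.

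A test of the difference itself between the lines, the interaction of line and treatment over 12 libraries, was made for 48 members. Of the 48, 42 had been tested in both lines. The others were ATP8B2, ATP8B4, ATP10B, XKR8, PLSCR3 and OSBPL6. These were below the filter in KYSE30, so their change there was hardly measured, and none was called. The interaction was called for 25 of the 48, against 49.9% of the 18405 genes tested. Those 18405 are also more than the 13990 genes tested in both lines. The signed log2 fold change was the higher in U138MG for 10 and in KYSE30 for 15, a split not counted over all genes. The 15 include genes such as ANO1, OSBPL5 and OSBPL7, which fell further in U138MG. The 6 members called with opposite signs were OSBPL1A, ESYT2, VPS13B, VPS13C, GRAMD1A and PRELID1. For ESYT2, VPS13B and VPS13C KYSE30 was the higher, and the interactions of the VPS13 genes were -0.65 (SE 0.08, adjusted p = 5.64e-08) for VPS13B and -0.97 (SE 0.18, adjusted p = 0.000898) for VPS13C. For OSBPL1A, GRAMD1A and PRELID1 U138MG was the higher, by 0.60 (SE 0.07), 0.87 (SE 0.09) and 0.52 (SE 0.08), with adjusted p of 1.17e-08, 1.28e-09 and 2.06e-06. VMP1 differed by 1.07 (SE 0.08, adjusted p = 1.01e-12) and ANO1 by -2.01 (SE 0.12, adjusted p = 8.86e-15). PLSCR4 differed by -2.16 (SE 0.34, adjusted p = 2.89e-06), with few counts in KYSE30.

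**Figure D4:**
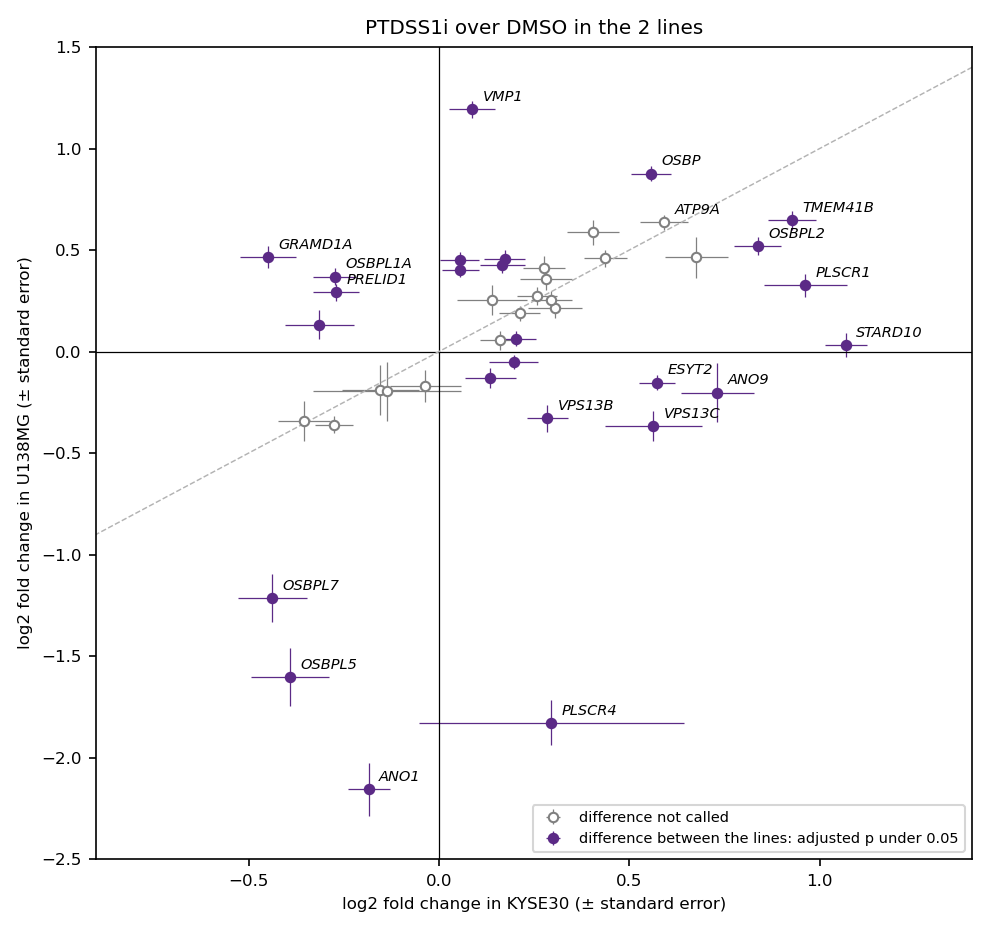
Log2 fold change of PTDSS1i over DMSO in KYSE30 (horizontal axis) against that in U138MG (vertical axis), each with its standard error, for the 42 members tested in both lines, with the dashed line marking equal changes. Filled symbols have an adjusted p under 0.05 for the difference between the lines, and VMP1 (0.09 and 1.19) and STARD10 (1.07 and 0.03) lie far from the dashed line on opposite sides of it.

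Related genes outside the 50 give the setting. Of 57 other lipid transport genes that were listed, 42 were tested in KYSE30, with 16 higher and 10 lower and a median of 0.06, and 43 in U138MG, with 24 higher and 10 lower and a median of 0.29. Of 16 genes for the making of PI4P and for the VAP anchors of transfer proteins, 6 were higher and 1 lower in KYSE30, and 7 higher and 5 lower in U138MG, with medians of 0.09 and -0.02. Over all genes tested, 30.1% were higher and 32.0% lower in KYSE30, and 33.9% and 33.6% in U138MG. With library-size scaling the other transport genes gave 13 higher and 13 lower in KYSE30 and 20 and 16 in U138MG. The PI4P and VAP genes then gave 5 and 3 in KYSE30 and 7 and 8 in U138MG. From both lists, PI4K2A and STARD5 passed 2-fold in both lines. PI4K2A, a kinase that makes PI4P on the trans-Golgi and endosomes, rose in KYSE30 from 58.4, 56.2 and 51.4 normalized CPM to 128, 123 and 128 and in U138MG from 43.2, 41.9 and 38.6 to 112, 109 and 109. Its treated libraries lay far above the vehicle ones in both lines, at 1.19 (SE 0.06, adjusted p = 7.67e-14) and 1.42 (SE 0.05, adjusted p = 8.5e-21). STARD5, a sterol or bile acid binding protein, fell in KYSE30 from 1.22, 0.857 and 1.02 normalized CPM to 0.14, 0.306 and 0.578, at -1.54 (SE 0.38, adjusted p = 0.00128). In U138MG it fell from 7.24, 8.37 and 5.86 to 2.46, 3.04 and 3.59, at -1.24 (SE 0.17, adjusted p = 3.57e-07), and the groups overlapped in neither line.

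Exons of 22 of the 42 members tested in KYSE30, and of 26 of the 48 in U138MG, overlap another annotated gene, and the sources used here do not state whether strand was used in counting. For those members the reads of the gene and of its neighbour may not have been told apart.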

How the data were processed

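Poly-A RNA of KYSE30 and U138MG cultures, 3 per group, was measured by RNA-seq from libraries made with the TruSeq RNA kit v2. For each line the deposited table, made by the authors, gives raw counts of reads per gene with no scaling, and the submitters' processing notes name Trimmomatic, STAR, featureCounts and the build hg38, without versions. The annotation, the counting parameters and the use of strand are not given in the sources used here, so that reads of overlapping genes may have been shared or lost. A further deposited column of the U138MG table, a gene identifier of the category other, was not analysed.

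Genes were kept by filterByExpr in edgeR 4.0.16 (minimum count 10, minimum total 15), which tested 42 and 48 members, and TMM factors were applied. The treated and vehicle libraries of a line were compared over all genes kept by edgeR's robust quasi-likelihood test (R 4.3.3) with two-sided p-values and Benjamini-Hochberg adjustment, and a gene was called at an adjusted p under 0.05. For the difference between the lines, an interaction term of line and treatment was tested on the genes shared by the tables, with TMM over 12 libraries, so that it can depart from the difference of the within-line values. Normalized CPM are CPM of the TMM-scaled library, and levels per kilobase use the summed exon length of GENCODE v29, which may not be the authors' annotation. The biological coefficient of variation was 0.0549 in KYSE30 and 0.0452 in U138MG. Totals were 18800932 to 26514658 counts, and bounds from 3 counts cover counting error only. Groups came from the sample labels, and p-values measure the spread between the 3 cultures of a group. The steps were tested on simulated data.

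Members given with every library were those called with a log2 fold change of at least 1 in size in a line, those called in both lines with opposite signs, and that of each role with the highest mean per kilobase over the 12 libraries. Other transport genes were named where they passed 2-fold in both lines. TMEM41B, PLSCR1, XKR8, PLSCR3, ATP8B2, ATP10B and VPS13A were given with every library beyond that rule, chosen after their values were seen. The members and lists were chosen with earlier results of these data known. Promoters were read from a RefSeq table of build GRCh38.p14. Alternatives were library-size and upper-quartile scaling, DESeq2 1.42.0, other filters, a replicate block, both lines fitted together, a 2-fold threshold and each library left out. Tables were joined and drawn with Python 3.11.15, pandas 2.3.3 and matplotlib 3.10.9.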

Additional observations from a re-analysis of the deposited data

Results flagged for a closer look

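The change from DMSO to PTDSS1i differed between the lines for 25 of the 48 members tested by the interaction in edgeR at an adjusted p under 0.05, a share to be read beside 49.9% of all genes. Of the 48, 42 passed the filter in both lines, and all 25 were among these. Values are the log2 fold change in U138MG minus that in KYSE30, and line and batch cannot be told apart. Among the flippase genes they were -0.31 for ATP8B1, -0.18 for TMEM30A and 0.22 for TMEM30B. Of these, TMEM30B lost the call under upper-quartile scaling (0.11) and TMEM30A without a filter on low counts (-0.17).

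For the scramblases and their relatives the differences were -2.01 for ANO1, -0.97 for ANO9, -0.68 for PLSCR1, -2.16 for PLSCR4, -0.32 for TMEM41B and 1.07 for VMP1. In the OSBP family they were 0.28 for OSBP, 0.60 for OSBPL1A, -0.36 for OSBPL2, -1.25 for OSBPL5, -0.82 for OSBPL7 and 0.31 for OSBPL9. PITPNA differed by 0.24, and by 0.13 with no call under upper-quartile scaling.

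At membrane contact sites the values were 0.36 for ESYT1, -0.77 for ESYT2, -0.65 for VPS13B, -0.97 for VPS13C and -0.29 for VPS13D. GRAMD1A differed by 0.87, STARD10 by -1.08, PRELID1 by 0.52 and TRIAP1 by 0.41. The adjusted p of TRIAP1 was 0.00479 and that of VPS13D 0.00147.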

How the results depend on the processing

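The numbers of members called kept within 1.5 times their values under each alternative run but the 2-fold threshold, which left 1 higher and 0 lower in KYSE30 and 1 higher and 4 lower in U138MG. DESeq2 gave 24 higher and 9 lower in KYSE30, and 24 and 10 in U138MG. Leaving out each library in turn gave 22 to 25 higher and 8 to 10 lower in KYSE30, 24 to 25 higher and 11 to 12 lower in U138MG, and 25 to 27 members that differ between the lines, a number that was 30 with upper-quartile scaling and 25 with library-size scaling. TMEM30A in U138MG turned to -0.083 with library-size scaling and -0.082 with upper-quartile scaling, both called (adjusted p = 0.0411 and 0.0470). Of the values of members named by the rule under the alternatives, 733 kept direction and side of the threshold, 6 lost a call, 5 gained one and 2 turned. VMP1 in KYSE30 gained a call at 0.13 when both lines were fitted together. TMEM30A, PITPNA and VPS13D in KYSE30 lost theirs with library-size scaling, at 0.09, 0.07 and 0.09. Library-size scaling moved the median of all genes by -0.10 in KYSE30 and -0.15 in U138MG, and upper-quartile scaling by -0.02 and -0.15. The cause of the changed calls was not tested. Among the other members ATP8B1 in U138MG also lost its call with DESeq2 (adjusted p = 0.0731) and XKR8 with DESeq2 (adjusted p = 0.0568).

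The replicate numbers were not shown to pair the cultures. Deviations from the group means of same-numbered DMSO and PTDSS1i cultures correlated at 0.159, 0.121 and 0.0959 in KYSE30 and at -0.0234, 0.0265 and 0.0958 in U138MG, and each KYSE30 culture correlated best with its own number, which did not hold of every U138MG culture. With the replicate number as a block, 24 members were higher and 9 lower in KYSE30, 24 and 12 in U138MG, and 26 differed between the lines. With 3 cultures per group and few counts, the changes of PLSCR4 and XKR8 in KYSE30 and of ATP8B4 in both lines could not be resolved at this depth.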

Other observations

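Several relatives of the listed genes in the wider lists of lipid transport and PI4P genes changed at least 2-fold in a line, and they were chosen here after their values were seen. OSBP2, the closest paralog of OSBP, rose in both lines. Its normalized CPM went from 73.8, 59.2 and 68.6 in DMSO to 129, 122 and 125 in PTDSS1i in KYSE30, at a log2 fold change of 0.90 (SE 0.06) in edgeR. In U138MG they went from 9.59, 12.7 and 10.5 to 62.8, 56.5 and 58.7, at 2.43 (SE 0.08), and the groups overlapped in neither line. CERT1, which carries ceramide from the ER to the Golgi, rose by a like amount in both, at 1.00 (SE 0.06) and 1.16 (SE 0.05), with an interaction of 0.12 (adjusted p = 0.217).

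STARD4, a soluble sterol carrier, rose more in KYSE30. It went there from 16.4, 16.1 and 16.2 normalized CPM to 101, 107 and 113, at 2.72 (SE 0.06), and in U138MG from 89.6, 92.3 and 90.8 to 165, 167 and 149.9, at 0.82 (SE 0.04). STARD13, a RhoGAP with a START domain, had 6.49, 5.64 and 5.19 normalized CPM in DMSO and 1.49, 0.967 and 1.08 in PTDSS1i in U138MG and fell at -2.28 (SE 0.21), while in KYSE30 it was at -0.13 (SE 0.09) and not called. The genes of the plasma membrane PI4-kinase complex moved both ways in U138MG. Those that rose had 2.26 (SE 0.20) for EFR3B and 1.09 (SE 0.07) for TTC7B and 0.70 (SE 0.07) for HYCC1. Those that fell had -0.43 (SE 0.05) for TTC7A and -0.10 (SE 0.04) for PI4KA, the kinase itself, and EFR3A at -0.09 (SE 0.04) and HYCC2 at -0.05 (SE 0.09) were not called. Of the PI4P and VAP genes, 5 were called lower in U138MG, and 3 with DESeq2. Which calls were lost was not followed gene by gene, so the small fall of PI4KA is not firm. In KYSE30 EFR3B and TTC7B had -0.03 (SE 0.33), not called, and 0.41 (SE 0.11), called.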
